A study of Mus musculus with 8 samples.

Results

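Copying a genome once per cell division needs a set of proteins that cells make as they enter S phase. The members are 45 genes of that set, chosen by name, and 44 of them were measured here among 18193 genes tested. Chaf1a is not analysed here. A probe set, the group of array probes that reports 1 transcript, was used where the annotation paired it with exactly 1 of the names, and the probe set of highest mean over 8 arrays stood for its gene.

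The arrays profiled T29, a mouse line from a thymic lymphoma described by the submitters as lacking Ikaros, a zinc finger transcription factor that restrains the growth of T cell precursors. The cells were transduced with MigR1, a retroviral vector, or with MigR1-Ik1ER, which adds an Ikaros protein that 4-hydroxytamoxifen (4OHT) switches on. Both lines were exposed for 24 h to 100 nM 4OHT or to ethanol, which gave 4 groups of 2 arrays: MigR1 cells in ethanol, MigR1 cells in 4OHT, Ik1ER cells in ethanol and Ik1ER cells in 4OHT. All groups thus share the T29 line and a retroviral vector, and the labels name neither a clone nor separate cultures. The p-values therefore reflect only how far arrays of a group lie apart, which could be technical variation. The number of arrays limits the precision.

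Of the 2 Ikzf1 probe sets, 1 lay between 10.45 and 11.27 log2 units on the 4 Ik1ER arrays and between 8.12 and 8.51 on the 4 MigR1 arrays, and the other lay between 9.97 and 10.44 on all 8 arrays. Of 10 T cell markers 8 were measured, and all 8 had means above 5.27. That was the top mean among 27 Bacillus control probe sets, taken here as the background level. Above that level were also 1 of 5 measured B cell markers (Pax5), 3 of 6 myeloid markers (Cd14, Csf1r and Lyz2), 1 of 3 erythroid markers (Klf1) and 1 of 6 stromal markers (Pdgfrb). The mean over the 6 myeloid markers was 5.39, 5.41 and 5.39 in the MigR1 ethanol, MigR1 4OHT and Ik1ER ethanol groups and 5.15 in the Ik1ER 4OHT group. With 4OHT in Ik1ER cells 3 of the 6 (50%) were called, Cd14 (-1.26) and Lyz2 (-0.60) lower and Itgam (0.54) higher. Called too were 6 of the 8 T cell markers (75%), 2 higher and 4 lower, with all 8 between -0.69 and 1.84. Of all genes tested 5.34% were called in that comparison. The part of either list in the results was not tested. Both replicate 2 arrays from Ik1ER cells differed from the rest in RNA controls: for the transferrin receptor, the 3′ control probe set exceeded the 5′ one by 1.66 (ethanol) and 1.91 (4OHT), against 1.15 to 1.39 on the other 6 arrays. Values without these 2 arrays are given beside the called replication genes and E2F factors and for some other members. They are not given for the markers.

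DNA replication starts where the origin recognition complex, CDC6 and CDT1 load the MCM2 to MCM7 helicase onto DNA. CDC7 kinase, CDC45, MCM10 and the GINS complex then switch the helicase on, primase and DNA polymerases copy the strands, and the PCNA ring, loaded by replication factor C (RFC), holds the polymerases in place. Many of these genes are transcribed at the border of G1 and S phase under E2F factors. In dividing thymocytes and thymic lymphomas they are known to be highly expressed, and their summed transcript level is often read as a measure of proliferation.

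To show the sequence upstream of the genes that carry the comparisons, promoter windows were read from RefSeq (GRCm38.p6), each holding 250 bases before the transcription start and 50 from it. Of the 45 names 39 matched, with 47 windows, and Rfc2, Mcm4, Gins1, Gins2, Prim2 and Pole had none. Capitals mark matches on either strand to the E2F letters TTTCGCGC, TTTGGCGC, TTTCCCGC or TTTGCCGC, to the CCAAT box and to TGGGAA, a core that Ikaros binds. The motifs can overlap. Tk1 is shown as the member that passed the test in Ik1ER cells, Rfc3 and Rrm2 as members at the low and high ends of the comparisons, and Mcm3 as a helicase subunit whose values hardly moved. Tk1 is at chr11:117825965-117826264 on the minus strand, Rfc3 at chr5:151651159-151651458 (minus), Rrm2 at chr12:24708004-24708303 (plus) and Mcm3 at chr1:20820263-20820562 (minus).
Tk1: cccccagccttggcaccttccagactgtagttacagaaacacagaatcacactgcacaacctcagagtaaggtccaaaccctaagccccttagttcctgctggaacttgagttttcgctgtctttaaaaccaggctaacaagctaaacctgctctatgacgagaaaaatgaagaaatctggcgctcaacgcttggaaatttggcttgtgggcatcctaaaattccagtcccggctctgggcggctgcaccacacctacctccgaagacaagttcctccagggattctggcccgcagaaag
Rfc3: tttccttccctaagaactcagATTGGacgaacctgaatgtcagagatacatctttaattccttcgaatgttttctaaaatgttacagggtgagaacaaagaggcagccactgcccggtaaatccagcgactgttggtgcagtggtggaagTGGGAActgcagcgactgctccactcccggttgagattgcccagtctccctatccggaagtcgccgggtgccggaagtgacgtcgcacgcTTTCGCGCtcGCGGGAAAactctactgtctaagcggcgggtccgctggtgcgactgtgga
Rrm2: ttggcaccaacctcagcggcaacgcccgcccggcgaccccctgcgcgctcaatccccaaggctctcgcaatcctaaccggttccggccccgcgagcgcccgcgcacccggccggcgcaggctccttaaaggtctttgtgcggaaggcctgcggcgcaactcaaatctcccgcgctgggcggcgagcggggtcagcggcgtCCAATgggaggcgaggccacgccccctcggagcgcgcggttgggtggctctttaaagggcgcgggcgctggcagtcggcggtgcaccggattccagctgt
Mcm3: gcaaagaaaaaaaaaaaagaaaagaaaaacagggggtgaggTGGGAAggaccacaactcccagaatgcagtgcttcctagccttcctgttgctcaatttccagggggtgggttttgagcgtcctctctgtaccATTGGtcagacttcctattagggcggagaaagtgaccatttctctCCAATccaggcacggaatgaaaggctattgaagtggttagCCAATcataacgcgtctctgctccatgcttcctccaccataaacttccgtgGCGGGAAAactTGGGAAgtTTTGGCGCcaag

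None of these letters was found in the Tk1 window. The Rfc3 window held TTTCGCGC 10 bases before the start and TTTCCCGC on the opposite strand from the start base on. The Rrm2 window held a CCAAT box 50 bases before the start, and the Mcm3 window held matches to all 3 motifs. An E2F match was present in 14 of 47 member windows (29.8%), against 2.26% of 32851 windows of all genes. CCAAT was found in 59.6% of member windows and in 37.4% of all, and TGGGAA in 36.2% against 25.6%. A match describes the letters and does not show binding.

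Every member was well above background: the 44 means ran from 7.61 log2 units (Tyms) to 13.98 (Pcna), and the lowest value on any array was 7.18. Levels of different genes are not set against each other here, since probes differ in brightness. Over the 8 arrays together, a member's values spanned 0.052 (Mcm4) to 0.62 (Tyms) log2 units, with a median span of 0.19, and 35 of 44 members spanned under 0.3. The members with wider spans were Gins2, Gins3, Pola1, Pola2, Prim2, Rfc3, Rpa1, Tyms and Tk1. The median difference between the 2 arrays of a group was 0.038, 0.032, 0.061 and 0.070 for the members in MigR1 ethanol, MigR1 4OHT, Ik1ER ethanol and Ik1ER 4OHT cells, and 0.081, 0.087, 0.10 and 0.13 for all genes.

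**Figure D1:**
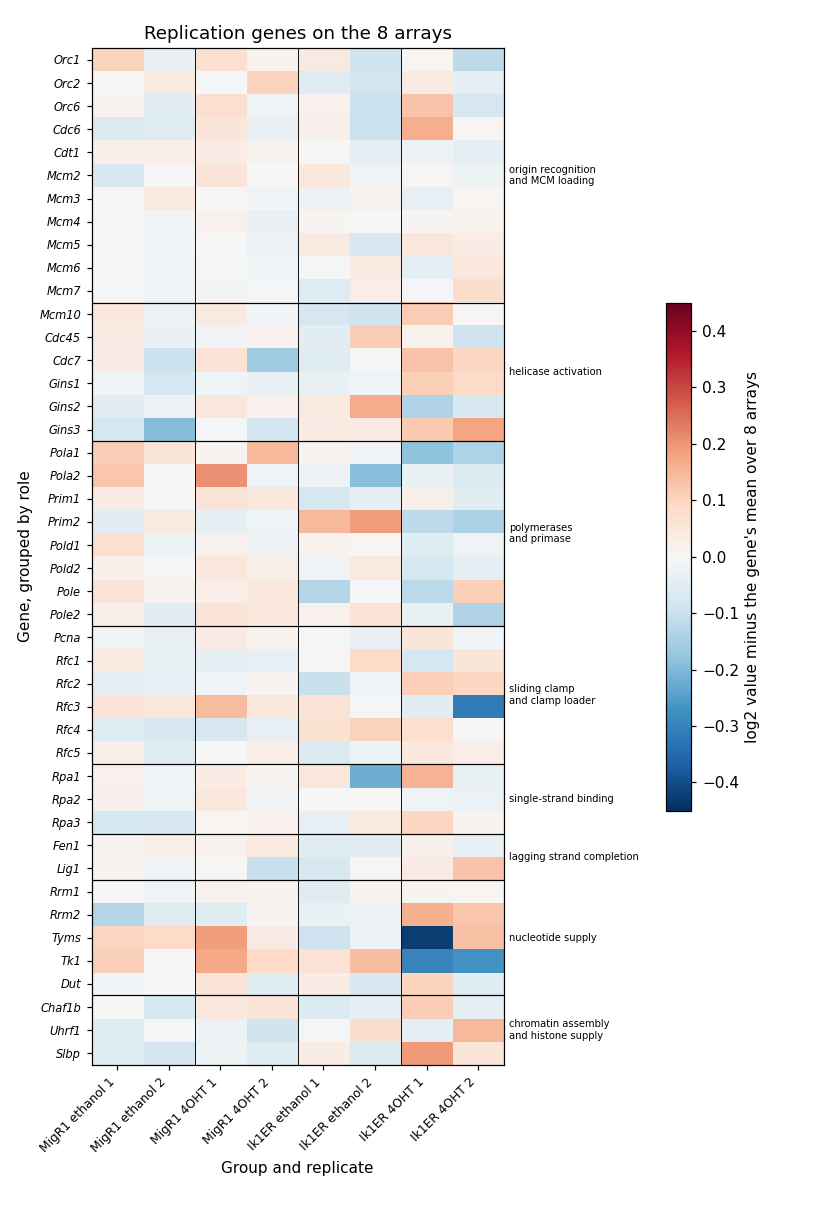
Heat map of the 44 measured replication genes (rows, grouped by role) on the 8 arrays (columns, by group and replicate); colour gives the log2 value minus the gene's mean over the 8 arrays. Most rows are pale, with spans under 0.3 for 35 genes, and Tk1 is low on both Ik1ER 4OHT arrays.

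In Ik1ER cells, 24 h of 4OHT left most replication genes at nearly the level of ethanol. Of the 44 members 1 passed the test (limma, adjusted p under 0.05), Tk1, which fell, and none rose, which is 2.27% of the members against 5.34% of all genes tested. For calls in 1 direction the shares over all genes were 2.8% higher and 2.53% lower. Among the 10984 genes brighter than the median probe set, as all members are, 8.04% passed. This cut does not match the members in spread: the median SE of the difference was 0.073 for members and 0.090 for these brighter genes. An unadjusted p under 0.05 was reached by 5 members (11.4%) and by 17.8% of all genes. The members' median log2 difference was 0.042, against -0.0044 over all genes, with 26 members above 0 and 18 below. Their median absolute difference was 0.065, against 0.097 for all genes and 0.11 for the brighter genes. At least 0.2 was reached by 4 members (Tk1, Prim2, Rfc3 and Gins2, all below 0), or 9.09%, against 21.9% of all genes. The 95% interval of the difference lay within 0.5 log2 units of 0 for 43 of 44 members and for 83.1% of all genes. The members' arrays did not overlap between 4OHT and ethanol for 22 of 44, against 42.7% of all genes. They were 13 higher and 9 lower, against 21% and 21.7% of all genes. In bulk RNA, fewer cells in S phase and less RNA per cell cannot be told apart. Without both replicate 2 arrays of the Ik1ER line no member was called, nor was any without any 1 of the 4 Ik1ER arrays. Without both arrays 26 members again lay above 0, but Cdc45, Pola2, Rfc4 and Uhrf1, all within 0.069 of 0 before, changed sides.

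**Figure D2:**
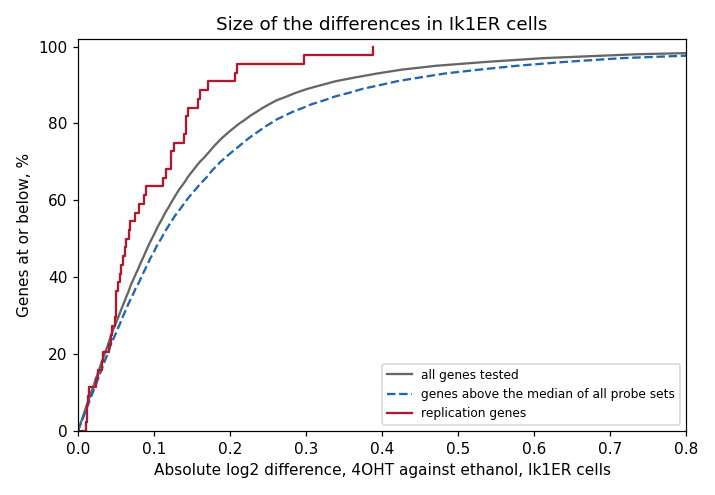
Cumulative share of genes (y axis, percent) at or below an absolute log2 difference between 4OHT and ethanol in Ik1ER cells (x axis), for the 44 replication genes (red steps), the 18193 genes tested (grey) and genes brighter than the median probe set (blue, dashed). At 0.2 the red line is at 40 of 44 genes, while 21.9% of all genes lie at 0.2 or beyond.

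In MigR1 cells, which carry no inducible Ikaros, 4OHT changed no member past the test, nor any of the 18193 genes (0%). At an unadjusted p under 0.05 there were 0 members and 386 genes (2.12%). All 44 differences were under 0.1 in size, from -0.046 (Rfc1) to 0.093 (Gins3), with a median of 0.021, and 33 lay above 0. Next to Gins3 in size were Rpa3 at 0.087 and Chaf1b at 0.086. Arrays did not overlap for 12 members, against 29.7% of all genes. When the effects of 4OHT in both lines were compared directly, 0 members and 1.26% of all genes passed the test, while Tk1, Prim2 and Gins2 had an unadjusted p under 0.05, as did 11.2% of all genes. For Prim2 the effects differed by -0.27 and for Gins2 by -0.28 (adjusted p = 0.344 and 0.357). This comparison uses the same arrays as both effects, so that its values are no separate support for them.

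**Figure D3:**
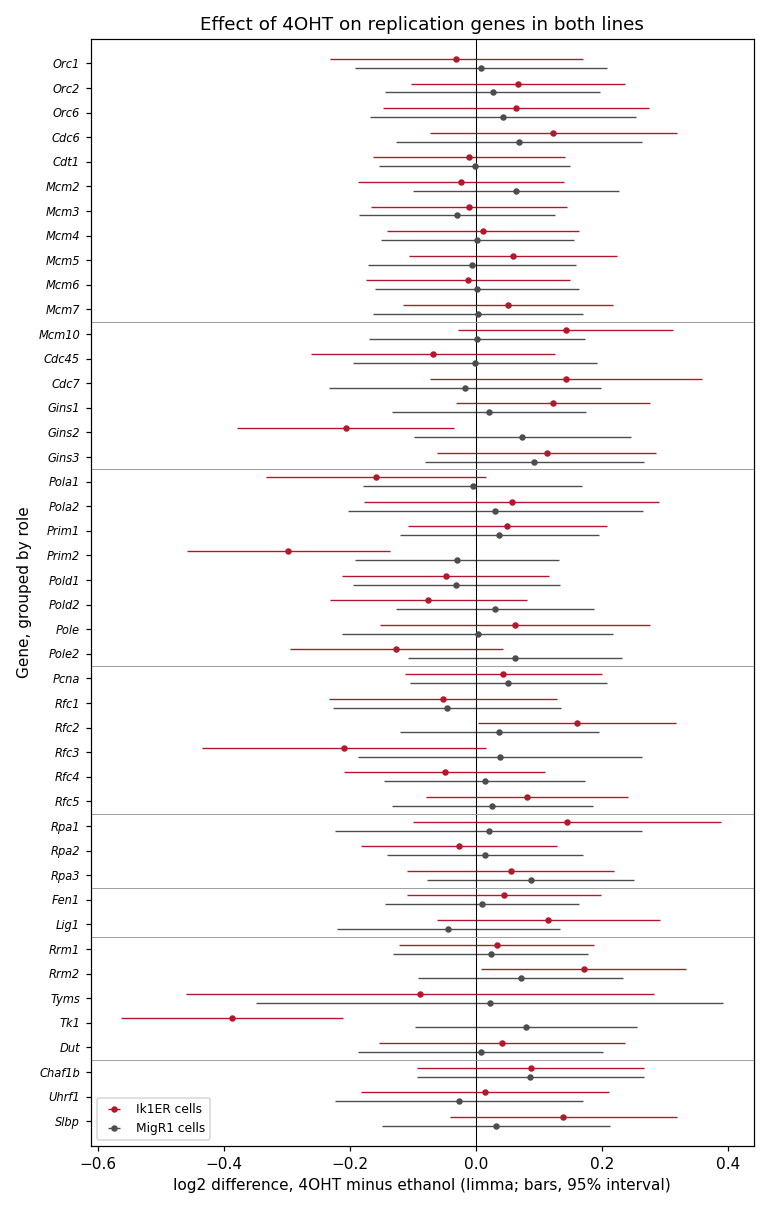
log2 difference between 4OHT and ethanol (x axis; points, limma estimate; bars, 95% interval) for each replication gene (y axis, grouped by role) in Ik1ER cells (red) and MigR1 cells (grey). All grey points lie within 0.1 of 0, and the red points run from -0.39 (Tk1) to 0.17 (Rrm2).

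Genes for nucleotide supply held both ends of the range. Tk1 encodes the thymidine kinase that salvages thymidine for DNA synthesis. Its values were 11.03 and 10.92 in MigR1 cells in ethanol, 11.09 and 11.01 in MigR1 cells in 4OHT, 10.98 and 11.06 in Ik1ER cells in ethanol and 10.62 and 10.65 in Ik1ER cells in 4OHT. Both Ik1ER 4OHT arrays lay below the other 6, and the other 3 groups overlapped. Tk1 fell 1.31-fold with 4OHT in Ik1ER cells (log2 -0.39, SE 0.0764, 95% interval -0.56 to -0.21, limma adjusted p = 0.0260). In MigR1 cells the difference was 0.079 (adjusted p = 0.9999). The effects in the lines differed by -0.47 (95% interval -0.72 to -0.22), which did not pass the test over all genes (limma adjusted p = 0.102). Tk1 has a single probe set, and when p-values were adjusted over all 45037 probe sets its adjusted p was 0.0594. Without both replicate 2 arrays of the Ik1ER line the adjusted p was 0.179.

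Rrm2, the regulated small subunit of ribonucleotide reductase, which makes deoxynucleotides, had values of 12.77 and 12.85 for MigR1 cells in ethanol and 12.85 and 12.92 with 4OHT. In Ik1ER cells it read 12.88 and 12.88 in ethanol and 13.07 and 13.03 in 4OHT. Its Ik1ER 4OHT arrays were the highest of the 8, with a log2 difference from ethanol of 0.17 (SE 0.0704, adjusted p = 0.255). The other nucleotide genes were nearer 0: Rrm1, the large reductase subunit, at 0.033 and Dut, which destroys dUTP, at 0.041. Tyms, thymidylate synthase, read 7.52 and 7.59 in Ik1ER cells in ethanol and 7.18 and 7.74 in 4OHT, so that the 2 arrays of 1 group were further apart than for any other member and the groups overlapped. Its difference of -0.089 has a 95% interval of -0.46 to 0.28, and without both replicate 2 arrays of the Ik1ER line it was -0.33. Against MigR1 cells in 4OHT, which read 7.80 and 7.65, it was -0.26 (95% interval -0.63 to 0.11), and -0.54 without them. A second Tyms probe set, with a mean of 6.06, gave -0.29 with 4OHT in Ik1ER cells. Against MigR1 cells in 4OHT it gave -0.24, and neither value passed the test over all probe sets.

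**Figure D4:**
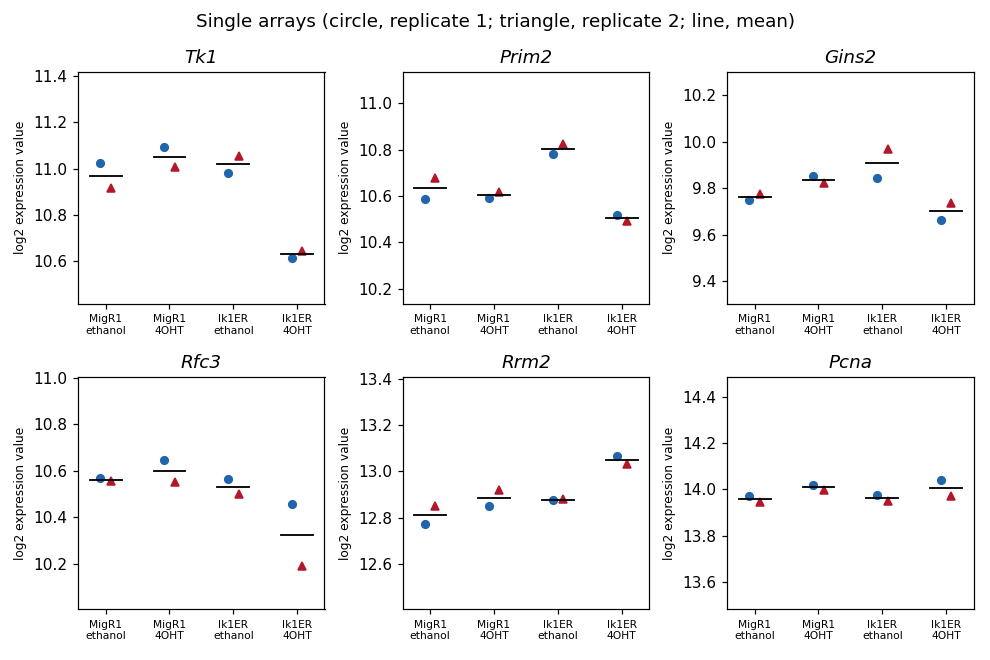
log2 expression values (y axis, each panel spanning 1 log2 unit) on single arrays of the 4 groups (x axis) for 6 replication genes; circles are replicate 1, triangles replicate 2 and lines group means. Tk1 and Prim2 were lowest and Rrm2 highest on the 2 Ik1ER 4OHT arrays, and Pcna stayed between 13.95 and 14.04.

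The genes that license origins lay close to 0. Orc1, Orc2 and Orc6, subunits of the origin recognition complex, differed by -0.031, 0.067 and 0.064 with 4OHT in Ik1ER cells. The loading factors CDC6 and CDT1 differed by 0.12 and -0.011. The helicase subunits Mcm2 to Mcm7 lay between -0.024 (Mcm2) and 0.059 (Mcm5). Mcm4, for example, read 12.52 and 12.51 in ethanol and 12.55 and 12.49 in 4OHT in MigR1 cells, and 12.54 and 12.53 in ethanol and 12.54 and 12.55 in 4OHT in Ik1ER cells. These 8 values span 0.052 log2 units. Its second probe set, an _x_at set with a mean of 11.84, lay at -0.17 with 4OHT in Ik1ER cells and at 0.22 between the lines in ethanol. None of the 11 licensing genes was called in any of the 5 comparisons. Of all genes, 5.34% were called with 4OHT in Ik1ER cells and 5.08% between the lines in 4OHT. The share was 1.26% for the difference between effects, and 0% in MigR1 cells and between the lines in ethanol. For 11 genes, 0 calls is near these shares. With 4OHT in Ik1ER cells the median difference of the 11 genes was 0.011. Their 95% intervals lay between -0.23 (Orc1) and 0.32 (Cdc6). The 18 probe sets of Mcm2 to Mcm7 above the controls ran from -0.25 to 0.13. The lowest was a probe set of Mcm3 with a mean of 7.12, while the other 4 of Mcm3 lay between -0.013 and 0.041. An _x_at set of Mcm6 with a mean of 11.76 lay at -0.13, and none of the 18 was called, against 2.5% of all probe sets.

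Among the genes that activate the helicase, 4 of 6 lay above 0 with 4OHT in Ik1ER cells. None was called, against 5.34% of all genes. Cdc7, the kinase that phosphorylates MCM proteins, was at 0.14, Mcm10 at 0.14, Gins1 at 0.12, Gins3 at 0.11 and Cdc45 at -0.069. Without both replicate 2 arrays of the Ik1ER line Cdc45 turned to 0.068, and 5 of 6 lay above 0. Gins2, which encodes another subunit of the GINS complex, lay in the other direction. Its values were 9.75 and 9.78 for MigR1 cells in ethanol, 9.85 and 9.82 for MigR1 cells with 4OHT, 9.85 and 9.97 in Ik1ER cells in ethanol and 9.66 and 9.73 in Ik1ER cells in 4OHT. The Ik1ER 4OHT arrays were the lowest, and the Ik1ER ethanol arrays overlapped with MigR1 cells in 4OHT. The difference in Ik1ER cells was -0.21 (SE 0.0745, adjusted p = 0.188), and its second probe set gave -0.23. Gins3 was higher in Ik1ER than in MigR1 cells under both treatments, by 0.17 in ethanol and 0.19 in 4OHT (adjusted p = 0.913 and 0.229). Its second probe set, with a mean of 7.81, gave -0.061 in ethanol and 0.15 in 4OHT. With 4OHT against ethanol in Ik1ER cells that probe set gave 0.28, which did not pass the test over all probe sets.

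Of the 8 polymerase and primase genes, 5 lay below 0 with 4OHT in Ik1ER cells, and none was called, against 5.34% of all genes. Prim2 encodes the large subunit of primase, which starts each strand with an RNA primer. It read 10.59 and 10.68 for MigR1 cells in ethanol, 10.59 and 10.62 for MigR1 cells with 4OHT, 10.78 and 10.82 in Ik1ER cells in ethanol and 10.52 and 10.49 in Ik1ER cells in 4OHT. The Ik1ER arrays were thus the highest of the 8 in ethanol and the lowest in 4OHT. The difference with 4OHT was -0.30 (95% interval -0.46 to -0.14, limma adjusted p = 0.0520), and the difference from MigR1 cells in ethanol was 0.17 (adjusted p = 0.913). With genes dimmer than the median probe set left out, the first had an adjusted p of 0.0228. The second turned to -0.049 when the 3 probe sets of Prim2 were averaged. Those other probe sets gave -0.083 and -0.12 with 4OHT in Ik1ER cells. Prim1, the catalytic primase subunit, was at 0.050.

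Pola1, the catalytic subunit of DNA polymerase alpha, read 10.43 and 10.40 in Ik1ER cells in ethanol and 10.23 and 10.28 in 4OHT, a difference of -0.16 (adjusted p = 0.332). Against MigR1 cells in 4OHT, which read 10.43 and 10.56, the difference was -0.24 (adjusted p = 0.139). It was -0.037 when averaged with its second probe set, whose mean of 3.60 lay below the highest control. Its partner Pola2 was at 0.057, and its replicates were up to 0.23 apart. The polymerase delta subunits Pold1 and Pold2 were at -0.048 and -0.075. Of the polymerase epsilon subunits, Pole was at 0.062 and Pole2 at -0.13. In 4OHT all 8 genes of this role were lower in Ik1ER than in MigR1 cells, with differences from -0.031 (Pold1) to -0.24 (Pola1). None passed the test, against 5.08% of all genes. In ethanol 5 of the 8 were lower in Ik1ER cells and 3 higher, with differences from -0.17 to 0.17.

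The sliding clamp Pcna was almost flat. It read 13.97 and 13.95 in ethanol and 14.02 and 14.00 in 4OHT in MigR1 cells, and 13.98 and 13.95 in ethanol and 14.04 and 13.97 in 4OHT in Ik1ER cells. All 8 values lay within 0.1 log2 units, and the difference in Ik1ER cells was 0.043 (95% interval -0.11 to 0.20). The highest value of any probe set was 14.73, so that Pcna lies near the top of the scale, where arrays compress differences. The clamp loader subunits were uneven. Rfc3 read 10.56 and 10.50 in Ik1ER cells in ethanol and 10.46 and 10.19 in 4OHT, against 10.65 and 10.55 in MigR1 cells in 4OHT. Both Ik1ER 4OHT arrays were the lowest of the 8, and most of the difference lay on the replicate 2 array. The difference with 4OHT was -0.21 (adjusted p = 0.321), or -0.11 without both replicate 2 arrays of the Ik1ER line, and a second probe set gave -0.27. Against MigR1 cells in 4OHT Rfc3 differed by -0.28 (adjusted p = 0.183), and by -0.14 without both arrays.

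Rfc2 lay in the other direction, at 10.81 and 10.89 in ethanol and 11.02 and 11.00 in 4OHT in Ik1ER cells, a difference of 0.16 (adjusted p = 0.273). Its 3 probe sets gave 0.16, 0.14 and 0.18. Rfc1, Rfc4 and Rfc5 were at -0.052, -0.050 and 0.081. Rfc4 was 0.15 higher in Ik1ER than in MigR1 cells in ethanol (adjusted p = 0.913).

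The single-strand binding, lagging strand and chromatin roles held no called gene with 4OHT in Ik1ER cells, against 5.34% of all genes. Rpa1, Rpa2 and Rpa3 form the complex that coats single-stranded DNA, and their differences in Ik1ER cells were 0.14, -0.027 and 0.055. For Rpa1 the replicate 2 array was the lower in both Ik1ER groups, at 12.69 and 12.43 in ethanol and 12.80 and 12.61 in 4OHT. Fen1, the flap nuclease, was at 0.045 and Lig1, which seals Okazaki fragments, at 0.12. Chaf1b, a subunit of the histone chaperone CAF-1, was at 0.087. Uhrf1, which recruits the maintenance DNA methyltransferase, was at 0.014. Slbp, which binds histone mRNA, was at 0.14.

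**Figure D5:**
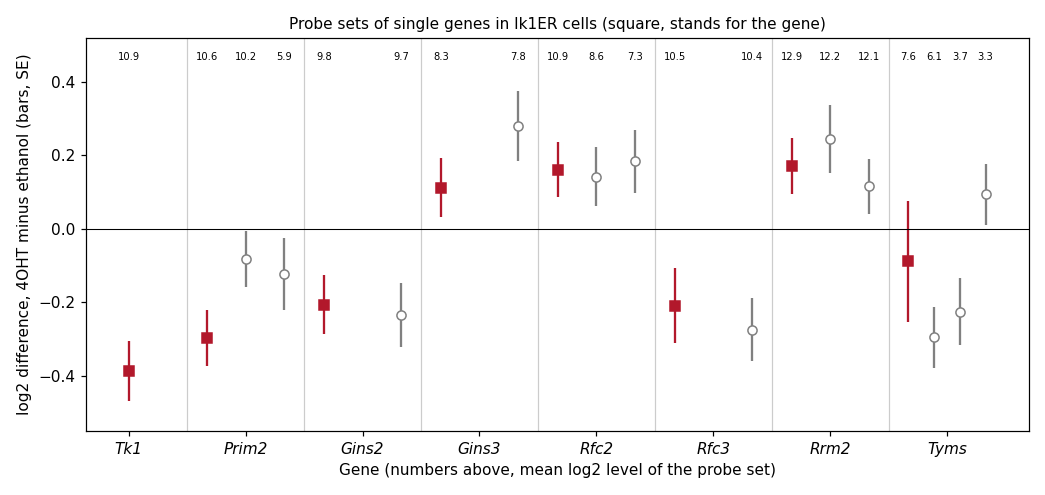
log2 difference between 4OHT and ethanol in Ik1ER cells (y axis; bars, SE) for each probe set of 8 genes (x axis), with the mean log2 level of the probe set above it; filled squares stand for the gene in the tests. All probe sets of Gins2 and Rfc3 lie below 0 and all of Rfc2, Rrm2 and Gins3 above. For Tyms, those with means of 7.61, 6.06 and 3.74 lie below 0 and that of 3.28 above. The means of 3.74 and 3.28 are under the highest control mean of 5.27.

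Of the 44 members 35 had more than 1 probe set, 98 in all, of which 88 had a mean above the controls. With p-values adjusted over all 45037 probe sets, none of the 98 was called for 4OHT in Ik1ER cells, against 2.5% of all probe sets, and their differences ran from -0.39 (Tk1) to 0.35 (a second probe set of Slbp with a mean of 7.09). For Ik1ER against MigR1 cells in 4OHT, 1 of the 98 was called, that of Tk1 (adjusted p = 0.0480), against 2.13% of all probe sets. Other probe sets of Prim2 (mean 5.94), Cdc45 (7.35) and Rfc3 (10.39) lay at -0.41, -0.38 and -0.35 in that comparison, without a call. In the other direction, the highest probe set above the controls was that of Slbp with a mean of 7.09, at 0.25.

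Between the lines in ethanol, without 4OHT, 0 members passed the test, as did 0% of all genes, and 968 genes (5.32%) had an unadjusted p under 0.05. Prim2 was the 1 member among those. By 1 probe set per gene, member differences ran from -0.17 (Pola2, -0.083 without both replicate 2 arrays of the Ik1ER line) to 0.17 (Gins3). Their median was -0.0046, and arrays did not overlap for 18 of 44 against 37.6% of all genes. Other probe sets above the controls went further. Those of Cdc45 (mean 7.35), Prim2 (5.94) and Orc1 (7.81) lay at -0.38, -0.32 and -0.28. Those of Mcm4 (11.84) and Gins1 (6.24) lay at 0.22 and 0.21, and none was called. In 4OHT, 1 member was called, Tk1, against 5.08% of all genes and 2.17% that were lower. An unadjusted p under 0.05 was reached by Tk1, Pola1, Rfc3, Gins3 and Rrm2 (11.4%), against 17.8% of all genes. Tk1 was lower in Ik1ER cells by 1.34-fold (log2 -0.42, SE 0.0764, 95% interval -0.59 to -0.24, limma adjusted p = 0.0209), and without both replicate 2 arrays of the Ik1ER line its adjusted p was 0.0786. The members' median in 4OHT was -0.0047, with 20 above 0 and 24 below, and arrays did not overlap for 24, against 44.8% of all genes. The comparisons of Ik1ER cells in 4OHT with ethanol and with MigR1 cells share those 2 Ik1ER arrays.

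A list of 36 other replication genes, of which 34 were measured, held 2 called genes. In Ik1ER cells with 4OHT, 1 rose and 1 fell, or 5.88%, against 5.34% of all genes, and the median was 0.034. Pold4, the smallest subunit of polymerase delta, read 7.33 and 7.46 in ethanol and 7.82 and 7.92 in 4OHT, while the 4 MigR1 arrays lay between 7.28 and 7.36. It rose by 0.48 (SE 0.0783, limma adjusted p = 0.0129). Dna2, a nuclease and helicase that trims long flaps, read 10.17 and 10.00 in ethanol and 9.68 and 9.58 in 4OHT, below all 4 MigR1 arrays, and its log2 difference was -0.45 (adjusted p = 0.0259). Without both Ik1ER replicate 2 arrays the adjusted p was 0.0648 for Pold4 and 0.0959 for Dna2, and with the mean over its probe sets Dna2 was at -0.28 (adjusted p = 0.11). Both were also called between the lines in 4OHT, Pold4 at 0.56 and Dna2 at -0.46 (adjusted p = 0.00751 and 0.0264), and without both arrays the adjusted p was 0.0356 and 0.0879. No gene of the list was called in MigR1 cells or for the difference between the lines' effects, against 0% and 1.26% of all genes.

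Of 14 E2F factors and G1/S regulators, none was called with 4OHT in Ik1ER cells, against 5.34% of all genes. In 4OHT 3 were called higher in Ik1ER than in MigR1 cells, a comparison in which 5.08% of all genes were called. E2f2, a factor that activates S phase genes, read 9.08 and 8.92 in MigR1 cells in 4OHT, 8.98 and 9.26 in Ik1ER cells in ethanol and 9.58 and 10.06 in Ik1ER cells in 4OHT. Both arrays of the last group lay above the other 6. The line difference in 4OHT was 0.82 (adjusted p = 0.0292), and the difference with 4OHT in Ik1ER cells was 0.70 (adjusted p = 0.0507). The latter passed the test in 6 of 18 alternatives, with values from 0.46 to 0.94 and adjusted p from 0.0195 to 0.233. Cdk2, the kinase partner of cyclins E and A, was at 0.34 with 4OHT in Ik1ER cells (adjusted p = 0.0723). Between the lines in 4OHT, E2f7 and E2f8, which repress E2F targets, were higher in Ik1ER cells by 0.60 and 0.42 (limma adjusted p = 0.0113 and 0.0336). With 4OHT against ethanol in Ik1ER cells they differed by 0.35 and 0.31, without a call. Between the lines in ethanol, E2f7 was 0.37 higher in Ik1ER cells, also without a call. Without both replicate 2 arrays of the Ik1ER line none of the 3 was called (adjusted p = 0.0566, 0.0797 and 0.114 for E2f2, E2f7 and E2f8). The 14 measured members with an E2F match in their window had a median difference of -0.011 with 4OHT in Ik1ER cells, and the 24 without had 0.047. For TGGGAA the medians were 0.047 for the 16 with a match and 0.037 for the 22 without. These are descriptions without a test, and Tk1 was the called gene in the groups without a match.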

How the data were processed

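Total RNA was labelled with biotin and hybridised to 8 Affymetrix arrays. The authors deposited 1 log2 value per probe set and array, which the submitters' processing notes credit to RMA without a version. RMA gives arrays processed together a like distribution, which hides a global change of RNA per cell. Whether all 8 were processed together is not stated by the labels, and their medians ran from 5.36 to 5.43. Of 45101 probe sets, 34945 had 1 symbol in the platform annotation, 932 several and 9160 none, and 64 were controls. Those with 1 symbol gave 18193 genes. Probe sets ending in _x_at, which can match related transcripts, stood for 4 members (Fen1, Mcm5, Pold1 and Rrm2).

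Group means over all 8 arrays were fitted with lmFit and eBayes of limma 3.58.1 in R 4.3.3 (4 residual degrees of freedom), for 5 contrasts. P-values were adjusted by Benjamini and Hochberg over all genes, and a gene with an adjusted p under 0.05 was called. Limits of 0.1, 0.2, 0.3 and 0.5 on the log2 scale only describe sizes. The script was tested on simulated data. The members and the lists were chosen with earlier results of these data known. By rule the text gives each member where its role is described, with fuller values for called members and those of smallest p or largest difference, and from other lists the called genes or, for 4OHT in Ik1ER cells, those of smallest p. Alternatives covered the replicate block, dim genes, moderation, normalization, centring, the choice of probe set, the arrays fitted and leaving out arrays.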

Additional observations from a re-analysis of the deposited data

How the results depend on the processing

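All 44 members lay above the controls. With 2 arrays per group, calls near the threshold moved with the settings. With 4OHT in Ik1ER cells 5.34% of all genes were called, 10.9% without dim genes and 7.44% with trend and robust moderation. For 4OHT in Ik1ER cells 1 member was called, 2 with dim genes left out (Prim2 and Tk1), 3 with trend and robust moderation (Prim2, Rrm2 and Tk1), and 0 with every probe set on its own, with only the arrays compared or without both Ik1ER replicate 2 arrays. For Ik1ER against MigR1 cells in 4OHT, where 1 was called, these counts were 3 (trend and robust: Pola1, Rrm2 and Tk1), 0 (only the arrays compared) and 0 (without both arrays). Leaving out single arrays gave 0 to 1 in both. For the difference between the effects, 1 member (Tk1) was called with trend and robust moderation, against 0. The counts for MigR1 cells and for the lines in ethanol were 0 in all 18 alternatives.

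With another probe set rule or centring, median differences moved by more than the spread between arrays as follows. In Ik1ER cells the median of 0.042 was 0.023 with the mean over probe sets and, without single arrays, 0.011 to 0.042. With arrays centred on their medians, the median went from 0.021 to 0.036 in MigR1 cells, from 0.011 to -0.015 for the difference between effects, from -0.0046 to 0.041 for the lines in ethanol and from -0.0047 to 0.015 in 4OHT. Without single arrays it ranged from 0.0085 to 0.034, from -0.018 to 0.027, from -0.010 to 0.015 and from -0.013 to 0.0021 in the same order, which for MigR1 cells and for the lines in 4OHT is within that spread. The median thus changed sign in the last 3 of these comparisons and stayed above 0 in MigR1 cells under these alternatives. The cause of these moves was not tested. Prim2 between the lines in ethanol reversed from 0.17 to -0.049 with the mean over probe sets.

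Over all genes, the count called in Ik1ER cells was 971, and 399 with only the arrays compared, 389 without both replicate 2 arrays, and 447 and 441 without the Ik1ER ethanol replicate 1 or 2. Between the lines in 4OHT it was 925, and 578 with every probe set on its own, 416 with only the arrays compared, 592 without both arrays, and 295 and 237 without the MigR1 4OHT replicate 1 or 2. For the difference between effects it was 230, and 444 with trend and robust moderation, 114 with every probe set on its own, 90 without both arrays, 63, 71, 75 and 52 without each MigR1 array, and 101 and 110 without each Ik1ER ethanol array. It was 0 in MigR1 cells and in ethanol, and 1 in MigR1 cells with _x_at probe sets as a last choice and 1 in ethanol with the mean over probe sets. Cdc45 with 4OHT in Ik1ER cells went from -0.069 to 0.068 without both arrays. For E2f2 in that comparison 6 of 18 alternatives gave a call, and for E2f8 1. Tk1 kept its direction in all 18 alternatives for both comparisons, and its call in 11 and 12.

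By the labels, replicates share only a number. The correlation of same-numbered arrays' deviations over genes was 0.27 between the MigR1 groups and 0.45 between the Ik1ER groups, and -0.069 to 0.10 between lines. With the replicate number as a block, 1 member (Tk1) was called in Ik1ER cells, with 1160 genes in all, and 1 (Tk1) between the lines in 4OHT, with 1073 genes in all. The other 3 comparisons then had 0 members called. The block, shared by both lines, would miss a replicate difference of 1 line.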
